A study of Mus musculus with 77 samples.

Results

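The genes described here are 9 mouse genes of the complement system: C1qa, C1qb and C1qc, the components C3, C4b and Cfb, the inhibitor gene Serping1, and the receptor genes C3ar1 and C5ar1. They were chosen by function, with earlier results of these data known. They were taken by symbol, and all 9 were found among the 52636 genes of each of 5 count tables. The tables hold RNA sequencing counts from mouse cerebral white matter, 1 table for each labelled cell type: EC, pericyte, OPC, astrocyte and microglia. Each library is labelled control or stroke. EC have 5 controls and 7 strokes, pericytes 7 controls and 8 strokes, and OPC and astrocytes 6 of either kind each. In microglia the labels add P2 or P4, giving 8 controls of P2, 9 strokes of P2 and 9 strokes of P4. The labels do not spell out EC, OPC, P2 or P4. The sources used here give no strain, age, stroke model, time after stroke or way of isolating the cells, and nothing says that libraries came from separate animals, so the p-values measure the spread between these libraries, which may be technical.

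Complement is a protein cascade of innate immunity that tags and removes pathogens, debris and, in brain, synapses and myelin. C1q, built from the 3 chains that C1qa, C1qb and C1qc encode, recognizes targets and starts the classical pathway, which cleaves C4 and then C3, while complement factor B (Cfb) drives the alternative pathway. C1 inhibitor, the product of Serping1, blocks the C1 proteases, and the fragments C3a and C5a act through the receptors C3aR (C3ar1) and C5aR1 (C5ar1). In brain, microglia are the known main source of C1q and carry both receptors, whereas astrocytes are known to make C3 and C4.

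A microglia library held 5530125 to 11770194 counts, and a library of any other type 43367636 to 142944063. Levels are given as CPM, a library's counts relative to its total, with totals scaled by the TMM method within each table, so an order of levels across tables is a description. The labelled types carried their own markers, although other types were present too. In EC controls 12 endothelial markers summed to a mean of 3774 CPM, 12 astrocyte markers to 3835, 12 neuron markers to 8498 and 12 mature oligodendrocyte markers to 13970. EC levels below are thus of mixed RNA. Pericyte controls held 12800 CPM of 12 pericyte markers and 34140 CPM of the mature oligodendrocyte markers. Pericyte stroke libraries held 13430 CPM of the pericyte markers and 13460 CPM of 10 fibroblast markers. Astrocyte controls held 38840 CPM of the astrocyte markers. OPC controls held 14860 CPM of 12 OPC markers, among them Pdgfra and Olig2, and 107300 CPM of the mature oligodendrocyte markers. In microglia P2 controls 12 microglia markers, such as P2ry12 and Tmem119, summed to 17400 CPM. EC libraries numbered up to 6 held 123424129 to 142944063 counts and those numbered above 6 held 57569368 to 80697263, with controls and strokes in both classes.

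Stroke libraries held more RNA of the C1q chains and both receptors than controls in EC, pericytes, OPC and astrocytes. A gene was called where the adjusted p of edgeR's quasi-likelihood test, over all genes of a table, was under 0.05. In OPC 8 of 8 members that passed the filter on low counts rose, against 11.7% of all genes tested that rose and 8.77% that fell. EC had 6 of 9 called higher (3.57% of all genes rose and 2.67% fell), pericytes 6 of 9 (15.9% and 12.8%) and astrocytes 5 of 8 (5.63% and 4.68%). The member medians on the log2 fold scale were 1.06 in EC, 2.47 in pericytes, 3.50 in OPC and 2.11 in astrocytes, beside 0.03, -0.08, -0.01 and -0.04 for all genes tested. In microglia 0 of 7 members were called by edgeR between P2 stroke and P2 control. Over the 5 comparisons with control, 41 of 41 fitted member folds were above 0 and 25 were called. These counts include C5ar1 in OPC and EC, called in each. They also include Cfb and C3 in pericytes, Cfb in EC, and C3 and C4b in microglia, none of them called. All of these needed the stroke libraries to pass the filter, so the filter itself favoured a fold above 0 for them. The share of all genes with a fold above 0 was not counted. Since the members were chosen with earlier results known, their counts beside the shares of all genes are a description. Cfb did not pass the filter in OPC, astrocytes or microglia, nor Serping1 in microglia.

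**Figure D1:**
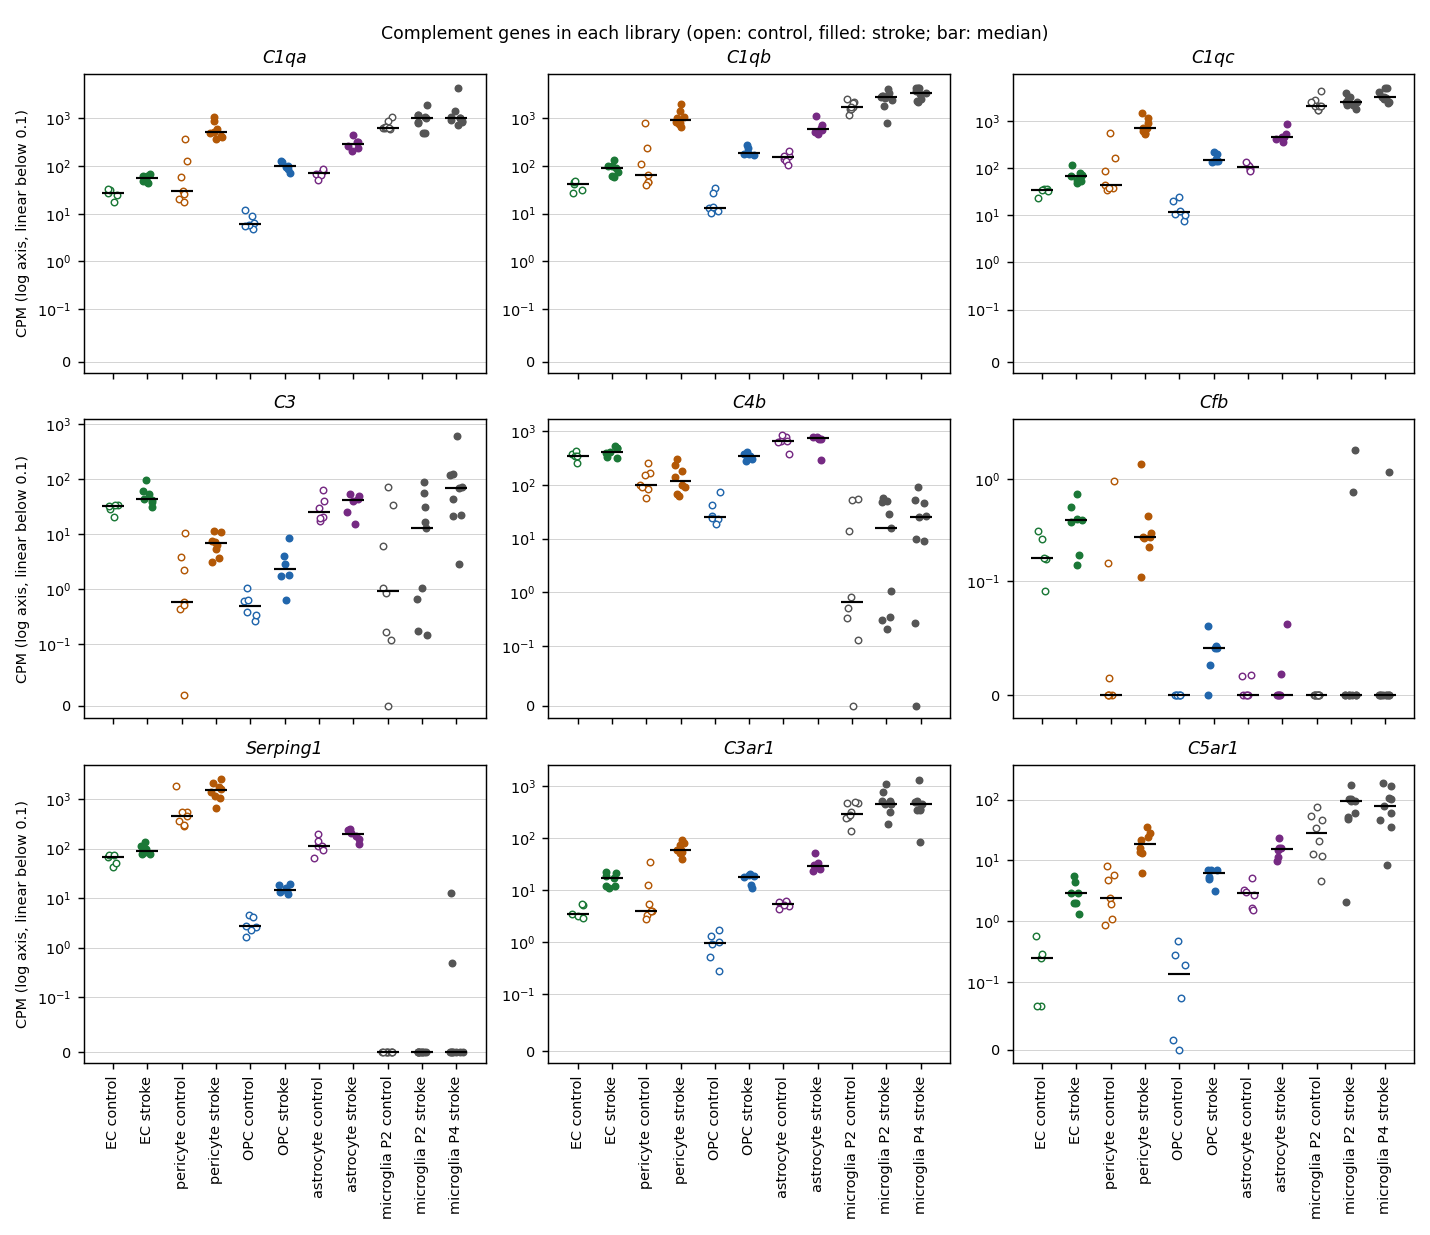
CPM of each complement gene (log axis, linear below 0.1) in each of the 77 libraries, by group. Open points are control libraries, filled points stroke libraries, and bars medians. C1q genes and both receptors are highest in microglia, C4b in astrocytes, and Serping1 in pericytes, where stroke libraries average 1527 CPM.

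C1qb (chromosome 4, 136880129 to 136886187, minus strand, GRCm38) lies in a cluster with C1qc (136889804 to 136893065) and C1qa (136895917 to 136898803) on the same strand. The 250 bases before the RefSeq start of C1qb and C1qc, the chains with a RefSeq window in the table used, are shown because the chains moved together. They are from GRCm38.p6, minus strand, 5′ to 3′, chr4:136886201-136886450 and chr4:136892915-136893164, and capitals mark the ETS letters AGGAAGT, which PU.1 and related factors can bind, read on the opposite strand:
C1qb: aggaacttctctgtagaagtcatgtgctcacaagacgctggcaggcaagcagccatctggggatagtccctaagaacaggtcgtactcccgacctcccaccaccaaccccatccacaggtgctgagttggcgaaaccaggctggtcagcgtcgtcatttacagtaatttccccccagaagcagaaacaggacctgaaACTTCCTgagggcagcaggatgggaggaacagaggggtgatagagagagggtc
C1qc: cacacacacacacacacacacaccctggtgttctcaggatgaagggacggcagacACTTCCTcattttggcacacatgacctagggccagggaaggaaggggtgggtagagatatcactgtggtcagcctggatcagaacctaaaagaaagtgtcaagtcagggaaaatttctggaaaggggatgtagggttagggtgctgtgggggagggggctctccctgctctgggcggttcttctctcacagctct
Bases -53 to -47 of C1qb and -195 to -189 of C1qc match. The RefSeq start of C1qc lies inside the GENCODE gene given above, so part of its window, though not the match, is within that gene. On either strand 7.69% of 32851 RefSeq windows of this length hold these letters. The motifs searched were chosen after the sequences had been seen, and a match is a description and not a site.

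In OPC controls C1qa ranged from 4.72 to 11.9 CPM with a median of 6.14, and in OPC stroke libraries from 72.3 to 126.7 with a median of 98.9. Control and stroke libraries did not overlap. C1qa rose by 3.80 ± 0.23 on the log2 scale (SE, edgeR adjusted p = 1.39e-07), C1qb by 3.47 ± 0.30 (adjusted p = 1.54e-06) and C1qc by 3.54 ± 0.27 (adjusted p = 6.60e-07). C1qb went from a median of 13.3 CPM (10.4 to 34.7) to 184 CPM (165.8 to 270.9). C1qc, the third chain, had medians of 11.5 CPM (7.66 to 24.7) and 149 CPM (132 to 224.8). All 3 chains were thus apart between the OPC groups in each of the 12 libraries. How many of all genes were apart between control and stroke libraries was not counted in any table. A lack of overlap, here and below, is therefore a description.

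Astrocyte libraries showed the same separation at higher levels. C1qb had a control median of 151.5 CPM (107 to 208) and a stroke median of 596 CPM (462 to 1111). Log2 fold changes were 2.09 ± 0.19 for C1qa, 2.14 ± 0.22 for C1qb and 2.26 ± 0.20 for C1qc (edgeR adjusted p = 1.41e-05, 3.05e-05 and 9.80e-06). C1qa had medians of 70.7 CPM (50.5 to 87.4) and 289.5 CPM (208 to 460.7), and C1qc of 107 CPM (88.7 to 134) and 458.5 CPM (362 to 864).

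In pericytes 1 control library stood apart. Pericyte control 8 had 801.8 CPM of C1qb, while the other 6 controls had 112.5 (control 5), 65.5 (6), 237.5 (9), 45.04 (11), 47.0 (14) and 39.6 (15). The 8 stroke libraries ranged from 641 to 2027 CPM with a median of 922, so that 2 of them lay at or below control 8. For C1qa and C1qc the control medians were 30.6 and 43.3 CPM and the stroke medians 508 and 704 CPM. Log2 fold changes were 2.67 ± 0.62 for C1qa, 2.47 ± 0.62 for C1qb and 2.60 ± 0.60 for C1qc (edgeR adjusted p = 0.00519, 0.00823 and 0.00468). Without control 8 they were 3.68, 3.55 and 3.62. That library also held 1525 CPM of the 10 myeloid markers below, against a range of 1668 to 4424 in stroke libraries.

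The C1q chains also rose in EC, with the smallest fitted folds of the 4 tables. C1qa in EC controls measured 27.7 (control 3), 31.4 (5), 24.5 (7), 17.4 (9) and 32.8 CPM (11), and the 7 stroke libraries ranged from 44.7 to 69.3 with a median of 56.1. C1qb controls measured 41.1, 47.0, 31.6, 26.6 and 48.9 CPM in the same order, and stroke libraries 59.2 to 131 (median 90.5). C1qc controls measured 36.8, 36.8, 33.2, 22.9 and 33.8 CPM, and stroke libraries 49.6 to 115.0 (median 68.5). No EC control reached the lowest EC stroke library for any chain. The log2 fold changes were 1.06 ± 0.16, 1.18 ± 0.21 and 1.11 ± 0.20 (edgeR adjusted p = 0.00828, 0.0123 and 0.0123). Within the 5 libraries numbered up to 6 they were 0.84, 0.79 and 0.69 (adjusted p = 0.389 for each), and within the 7 above 6 they were 1.21, 1.45 and 1.40 (adjusted p = 0.0668, 0.0691 and 0.0676), with 0 genes called in either class.

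Markers of myeloid cells rose beside the C1q chains. Of 10 markers shared by myeloid cells (Aif1, Tyrobp, Fcer1g, Cd68, Ptprc, Laptm5, Ctss, Cd14, Spi1 and Fcgr3) 10 rose in OPC, 10 in pericytes, 10 in astrocytes and 8 in EC. Of 12 microglia markers 12, 11, 11 and 6 rose in the same order. The summed myeloid markers ranged from 26.5 to 76.4 CPM in OPC controls and from 427 to 661 in OPC stroke libraries. In astrocytes they ranged from 297 to 458 and from 1034 to 2427 CPM, and in EC from 115 to 175 and from 218 to 580 CPM. Pericyte controls ranged from 136 to 1525 CPM. None of these markers was at 0 in all libraries of a group.

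Per 1000 counts of the 10 myeloid markers, C1qb held 400 ± 37 counts in OPC controls and 399 ± 15 in OPC stroke libraries (mean ± SD, n = 6 and 6). The ratio was 254 ± 31 and 243 ± 18 in EC (n = 5 and 7), 373 ± 79 and 414 ± 45 in pericytes (n = 7 and 8), and 401 ± 37 and 471 ± 20 in astrocytes (n = 6 and 6). C1qa ratios in stroke libraries were 0.909 to 1.26 times those of controls and C1qc ratios 0.906 to 1.26 times. Set against the 12 microglia markers instead, C1qb was 1.28 times the control ratio in EC, 2.02 times in pericytes, 2.12 times in OPC and 1.57 times in astrocytes. In bulk libraries more cells of a type and more RNA per cell cannot be told apart, and the part of myeloid RNA in these results was not tested.

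**Figure D2:**
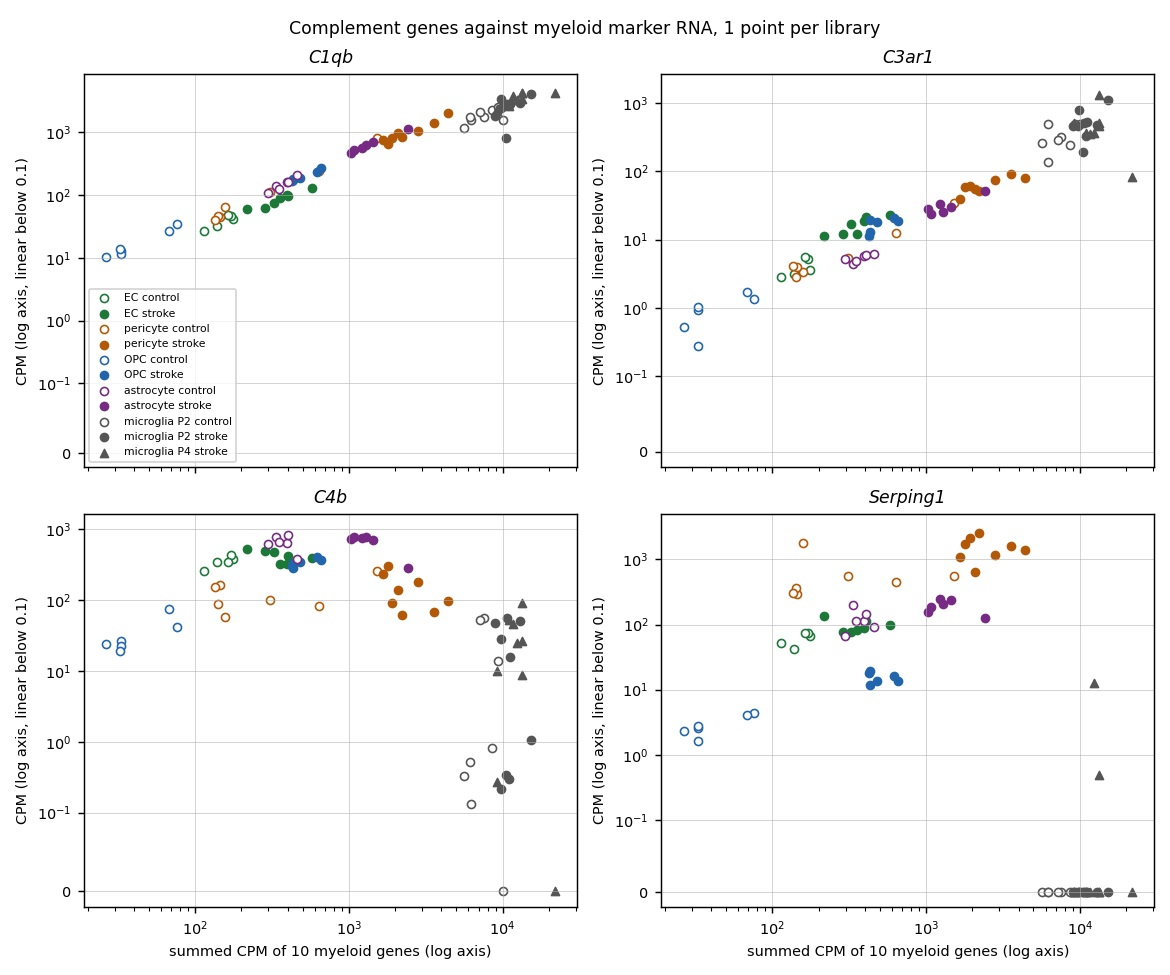
CPM of 4 complement genes (log axis, linear below 0.1) against the summed CPM of 10 myeloid markers (log axis), 1 point per library, open for control, filled for stroke, triangles for P4. C1qb and C3ar1 climb with the markers across the tables, apart from 1 P4 library low in C3ar1. C4b and Serping1 are low in microglia: Serping1 is at 0 CPM in all 17 P2 microglia libraries, which hold 5650 CPM or more of the markers.

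The 3 chains kept similar proportions between control and stroke libraries of EC, pericytes, OPC and astrocytes. Per base of exon, C1qb made up 45.5% of the C1q counts in EC controls and 47.0% in EC stroke libraries, 51.4% and 49.3% in pericytes, 52.9% and 50.4% in OPC, and 52.7% and 52.2% in astrocytes. The C1qa share was 32.7% ± 0.98 (SD, n = 5) in EC controls and 31.8% ± 2.96 (n = 7) in EC stroke libraries, above its 23.2% to 28.9% in the pericyte, OPC and astrocyte groups. Microglia groups had C1qa shares of 19.2% to 20.0%. Their C1qc shares were 29.6% to 34.45%, against 21.1% to 23.9% in the other groups, and single P2 control libraries ranged from 25.8% to 51.2%.

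The receptor genes moved in the same 4 tables. C3ar1 (chromosome 6, 122847138 to 122856161, minus strand), the receptor for C3a, had a median of 0.965 CPM (0.279 to 1.68) in OPC controls and 18.3 CPM (11.1 to 20.4) in OPC stroke libraries. It rose by 4.13 ± 0.34 on the log2 scale (edgeR adjusted p = 1.06e-06). EC controls measured 3.52, 5.15, 3.14, 2.85 and 5.49 CPM and EC stroke libraries 11.2 to 22.9 (median 16.8), a rise of 2.03 ± 0.24 (adjusted p = 0.00454). The groups were apart in EC, OPC and astrocytes, and in pericytes as well despite 34.4 CPM in control 8. Pericytes rose from a median of 4.05 to 59.2 CPM (2.75 ± 0.51, adjusted p = 0.00117, and 3.58 without control 8). Astrocytes rose from 5.50 (4.42 to 6.23) to 29.3 CPM (23.8 to 51.4), a change of 2.57 ± 0.19 (adjusted p = 2.94e-06).

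C5ar1 (chromosome 7, 16246743 to 16259540, minus strand), the receptor for C5a, was near the limit of counting in EC and OPC controls. Those of OPC held 60 counts over 6 libraries, with a median of 0.134 CPM (0 to 0.469), and the stroke libraries 2436 counts with a median of 6.18 CPM (3.10 to 7.03), so it passed the filter through the stroke libraries. Its fitted log2 fold was 5.07 ± 0.58 in OPC (edgeR adjusted p = 1.86e-05). EC controls measured 0.566, 0.251, 0.0651, 0.290 and 0.0646 CPM, and EC stroke libraries 1.33 to 5.59 (median 2.88). The EC controls held 135 counts over 5 libraries, and C5ar1 passed the filter through the stroke libraries there too. The EC log2 fold was 3.57 ± 0.56 (adjusted p = 0.00952), within its depth classes 2.48 (adjusted p = 0.389) and 4.67 (adjusted p = 0.0651). In pericytes the medians were 2.44 (0.882 to 8.13) and 18.9 CPM (6.14 to 35.9), with 1 stroke library at or below the highest control, and in astrocytes 2.86 (1.55 to 5.15) and 15.3 CPM (9.76 to 23.5). These rises were 2.47 ± 0.49 (adjusted p = 0.0018) and 2.40 ± 0.30 (adjusted p = 0.000149). Neutrophils, which also carry C5aR1, had 8 markers in the lists. Their sum was 2.88 to 14.7 CPM in pericyte stroke libraries and at most 1.18 CPM in OPC, EC and astrocyte libraries.

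Per 1000 myeloid marker counts, C3ar1 held 26.2 ± 5.5 counts in EC controls and 45.4 ± 7.2 in EC stroke libraries (mean ± SD, n = 5 and 7), 22.4 ± 4.5 and 25.8 ± 4.6 in pericytes, 21.4 ± 8.0 and 33.2 ± 7.0 in OPC, and 14.6 ± 1.6 and 23.2 ± 3.4 in astrocytes. The C5ar1 ratio was 1.62 ± 1.25 and 8.06 ± 2.76 in EC and 3.22 ± 2.61 and 11.3 ± 2.4 in OPC. In pericytes it was 10.9 ± 5.7 and 8.06 ± 3.26, and in astrocytes 7.69 ± 2.86 and 11.1 ± 2.6. These ratios were not tested.

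The 250 bases before the RefSeq starts of the receptor genes are shown since both rose in the 4 tables (GRCm38.p6, minus strand, chr6:122856158-122856407 and chr7:16259339-16259588). Capitals mark AGGAAGT on the opposite strand in C5ar1 and, in C3ar1, the AP-1 letters TGANTCA, which 6.75% of windows hold on either strand:
C3ar1: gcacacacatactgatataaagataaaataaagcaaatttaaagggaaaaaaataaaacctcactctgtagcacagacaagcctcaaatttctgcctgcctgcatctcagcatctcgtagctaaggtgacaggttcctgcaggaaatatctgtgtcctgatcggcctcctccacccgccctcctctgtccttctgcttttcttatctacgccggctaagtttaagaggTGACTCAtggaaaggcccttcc
C5ar1: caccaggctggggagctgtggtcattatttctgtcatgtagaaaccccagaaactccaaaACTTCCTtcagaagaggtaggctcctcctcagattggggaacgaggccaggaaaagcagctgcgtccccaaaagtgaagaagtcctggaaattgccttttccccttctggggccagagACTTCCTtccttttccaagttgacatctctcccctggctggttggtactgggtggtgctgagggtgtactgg
The C5ar1 matches lie at -190 to -184 and -72 to -66 and the C3ar1 match at -22 to -16. RefSeq and GENCODE starts differ. Most of the C5ar1 window, with both its matches, lies within the GENCODE gene, which reaches 16259540, and so is not upstream of it. The C3ar1 window overlaps its GENCODE gene only at its last bases, beyond the match.

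C4b (chromosome 17, 34728380 to 34743882, minus strand), which encodes complement C4, rose in OPC and in no other table. OPC controls had a median of 25.3 CPM (18.9 to 75.1) and OPC stroke libraries 344 CPM (282 to 410.7), with no overlap. The log2 fold change was 3.29 ± 0.30 (edgeR adjusted p = 2.52e-06). Astrocytes had the highest levels of C4b, with medians of 656 CPM (383 to 831) in controls and 744 CPM (288 to 795) in stroke libraries, and a log2 fold of 0.04 ± 0.23 (adjusted p = 0.944). EC controls measured 381, 436, 351.5, 260 and 346 CPM and EC stroke libraries 323 to 531 (median 416), a log2 fold of 0.25 ± 0.15 (adjusted p = 0.330). Pericyte medians were 102 (57.4 to 256) and 119 CPM (62.5 to 308), a log2 fold of 0.18 ± 0.37 (adjusted p = 0.733).

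The C4b response in OPC exceeded that in EC by 3.10 ± 0.46 on the log2 scale, that in pericytes by 3.19 ± 0.44 and that in astrocytes by 3.30 ± 0.46 (edgeR adjusted p = 2.37e-05, 1.59e-06 and 1.03e-05). Microglia libraries held little C4b, with medians of 0.672 CPM in P2 controls, 15.6 in P2 stroke and 25.1 in P4 stroke libraries, and a log2 fold of 0.54 ± 1.27 between the P2 groups (adjusted p = 0.919). Per 1000 myeloid marker counts C4b stood at 2.04 ± 3.28 in microglia P2 controls (n = 8) and 2.11 ± 2.29 in P2 stroke libraries (n = 9), whereas in OPC it stood at 773 ± 211 in controls and 683 ± 76 in stroke libraries (n = 6 and 6), so that C4b and the myeloid markers rose by similar factors there. Astrocyte markers rose in OPC too, in 9 of 12, from a sum of 920 to 1169 CPM in controls to 1769 to 4493 CPM in stroke libraries. Per 1000 counts of those markers C4b stood at 32.7 ± 17.5 in OPC controls, 147 ± 46 in OPC stroke libraries (n = 6 and 6), and 17.2 ± 4.2 and 15.0 ± 3.0 in astrocytes. All 12 mature oligodendrocyte markers fell in OPC, from a sum of 98960 to 113400 CPM to 57580 to 78240 CPM, while 11 of 12 OPC markers did not pass and 1 fell. The part of these markers in the C4b result was not tested. C4b has a close copy, C4a, and 35.2% of 50-base stretches of the C4b transcript also occur in C4a, so counts of the pair are uncertain, although C4a averaged at most 0.893 CPM in any group.

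**Figure D3:**
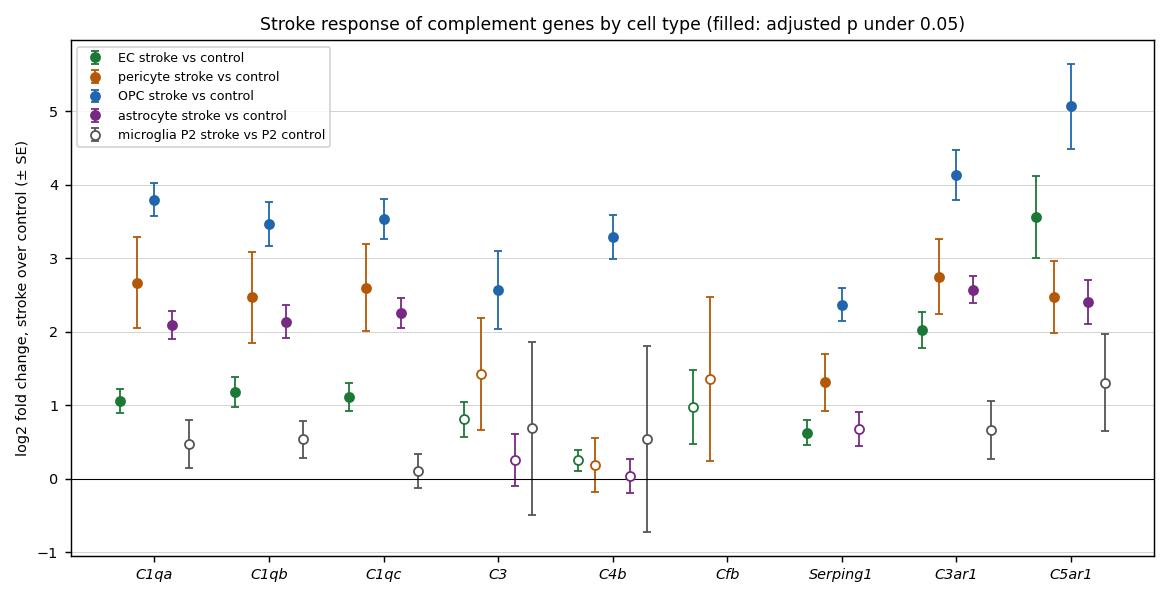
Log2 fold change of stroke over control (± SE) for each complement gene in each table, filled where the edgeR adjusted p was under 0.05. OPC points lie highest for the C1q chains, C4b (3.29), Serping1, C3ar1 and C5ar1, and the C4b points of EC, pericytes and astrocytes lie between 0.04 and 0.25.

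C3 (chromosome 17, 57203970 to 57228136, minus strand), the central component that all pathways cleave, passed the threshold in OPC and in no other table. Its level there was low, with a median of 0.496 CPM (0.268 to 1.07) in controls and 2.38 CPM (0.635 to 8.52) in stroke libraries, and 1 stroke library lay within the control range. The log2 fold was 2.57 ± 0.53 (edgeR adjusted p = 0.00281). EC controls measured 33.8, 28.5, 20.3, 32.1 and 34.7 CPM and stroke libraries 31.1 to 95.5 (median 44.4), a log2 fold of 0.81 ± 0.24 (adjusted p = 0.0579) that passed with DESeq2 (0.00827). Astrocytes had medians of 25.5 (17.7 to 64.6) and 42.6 CPM (15.7 to 55.1), and the groups overlapped throughout (0.26 ± 0.35, adjusted p = 0.718). For pericytes the log2 fold was 1.43 ± 0.77 (adjusted p = 0.170), and without control 6, whose 10.6 CPM lay far above the control median of 0.592, it was 2.46 (adjusted p = 0.0142). Differences in the C3 response among the 4 tables did not pass (adjusted p = 0.164).

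The 250 bases before the RefSeq start of C3 (GRCm38.p6, minus strand, chr17:57228137-57228386) are shown for comparison with the C1q and receptor genes. Capitals mark the C/EBP letters TTGCNNAA at -45 to -38, present on either strand in 9.56% of windows:
C3: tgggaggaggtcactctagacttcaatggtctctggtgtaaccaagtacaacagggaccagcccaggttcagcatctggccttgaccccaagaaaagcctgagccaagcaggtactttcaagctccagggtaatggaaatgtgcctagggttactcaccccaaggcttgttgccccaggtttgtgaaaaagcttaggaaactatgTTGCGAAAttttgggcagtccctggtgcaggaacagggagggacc
None of the 5 windows printed here held the letters TTCNNNGAA of a GAS element, present in 7.02% of all windows.

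Cfb (chromosome 17, 34856374 to 34862518, minus strand) was scarce everywhere. Its group medians were highest in EC stroke libraries, at 0.399 CPM (0.144 to 0.707), and EC controls measured 0.309, 0.165, 0.0912, 0.168 and 0.259 CPM. The log2 fold was 0.98 ± 0.50 in EC (edgeR adjusted p = 0.264) and 1.36 ± 1.12 in pericytes (adjusted p = 0.374). Pericyte control 6 held 0.947 CPM while 4 of the 7 controls held 0 counts, so that Cfb passed the filter on low counts through the stroke libraries. Without control 6 the fitted log2 fold was 3.87 (adjusted p = 0.0127), again of a gene that passed through the group where it was high. In OPC 0 counts were found over 6 controls, which allows up to 0.00829 CPM, and 15 counts over 6 stroke libraries. The gene shares 79.5% of its exonic bases with the overlapping gene Gm20547 on the same strand, which was listed at 0 counts in every library, so the Cfb counts are uncertain.

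Serping1 (chromosome 2, 84765387 to 84775444, minus strand) rose in pericytes, OPC and EC. Pericyte controls had a median of 447 CPM (289.9 to 1800) and pericyte stroke libraries 1488 CPM (645.5 to 2492), a log2 fold of 1.31 ± 0.39 (edgeR adjusted p = 0.0206). The highest control, again control 6, lay at or above 6 of 8 stroke libraries, and without it the fold was 1.87 (adjusted p = 0.000303), whereas without stroke 7 the call was lost (1.11, adjusted p = 0.0506). OPC had medians of 2.67 (1.66 to 4.44) and 14.9 CPM (12.0 to 19.2), with no overlap, and a log2 fold of 2.37 ± 0.22 (adjusted p = 3.19e-06). EC controls measured 67.3, 73.5, 41.8, 52.1 and 74.2 CPM and EC stroke libraries 75.9 to 133 (median 87.9), a log2 fold of 0.62 ± 0.17 (adjusted p = 0.0451) that missed the threshold in 10 of 12 fits that left out 1 library (adjusted p up to 0.133). Its log2 folds within the EC classes were 0.16 (adjusted p = 0.890) and 0.94 (adjusted p = 0.0800). Astrocyte medians were 112 (65.7 to 195.8) and 195 CPM (126 to 244), with 0.67 ± 0.23 (adjusted p = 0.0902).

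Microglia held 0 counts of Serping1 in all 17 P2 libraries, which allows up to 0.0497 CPM in P2 controls and 0.0379 in P2 stroke libraries, and 7 of 9 P4 libraries were also at 0. Fibroblast markers rose beside Serping1 in pericytes and OPC, by a similar factor only in pericytes. In pericytes 7 of 10 rose, Col1a1 and Dcn being on the list, from a summed range of 2025 to 6304 CPM to one of 4939 to 24840 CPM. Per 1000 counts of them Serping1 stood at 152 ± 62 in pericyte controls and 119 ± 34 in stroke libraries (mean ± SD, n = 7 and 8). The OPC libraries, in which 7 of 10 rose and 1 fell, had 76.0 ± 26.8 and 154 ± 39 (n = 6 and 6). EC had 1585 ± 436 and 1994 ± 430 (n = 5 and 7), and astrocytes 904 ± 200 and 1072 ± 95 (n = 6 and 6). Pericyte control 6 had 6304 CPM of the fibroblast markers, the highest of the controls, and 4466 CPM of 12 pericyte markers, the lowest. The part of these markers was not tested.

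The stroke response differed among the 4 tables for 7 of 9 members, in a test of cell type by condition over 51 libraries in which 14.3% of 25257 genes passed. C4b had the smallest adjusted p (6.02e-07), followed by C1qa (0.00451), Serping1 (0.0129), C1qc (0.0132), C5ar1 (0.0193), C3ar1 (0.0203) and C1qb (0.0355), while C3 (0.164) and Cfb (0.347) did not pass. OPC responses exceeded EC responses in 6 members (1.94% of genes were called higher). The differences on the log2 scale were 2.80 ± 0.59 for C1qa, 2.35 ± 0.62 for C1qb, 2.49 ± 0.58 for C1qc, 1.80 ± 0.46 for Serping1 and 2.17 ± 0.54 for C3ar1 (edgeR adjusted p from 0.00262 to 0.0224), beside C4b. Against pericytes 2 members passed (5.91% of genes), C4b and C5ar1 (2.64 ± 0.71, edgeR adjusted p = 0.0103), and the C1qa difference was 1.15 ± 0.55 (adjusted p = 0.169). Against astrocytes 3 passed (1.12% of genes), C4b, Serping1 (1.75 ± 0.46, adjusted p = 0.0375) and C5ar1 (2.70 ± 0.74, adjusted p = 0.0497). The C5ar1 call was lost with RLE factors (adjusted p = 0.0643), with no filter (0.0699) and in 7 of 12 fits that left out 1 EC library. These 3 contrasts share the OPC libraries.

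Microglia had the highest C1q and receptor levels, and no member was called between their groups. C1qb had medians of 1727 CPM (1185 to 2542) in P2 controls, 2858 (806.6 to 4150) in P2 stroke and 3385 (2160 to 4238) in P4 stroke libraries, and the groups overlapped. The log2 fold of P2 stroke over P2 control was 0.53 ± 0.25 for C1qb (unadjusted p = 0.0408, edgeR adjusted p = 0.478), the 1 member at an unadjusted p under 0.05. C5ar1 differed by 1.31 ± 0.66 (adjusted p = 0.504) and C3ar1 by 0.66 ± 0.39 (adjusted p = 0.578). Of all 13225 genes 0% were called higher and 0.00756% lower in this comparison, and the same shares held for P4 stroke against P2 stroke. Unadjusted p-values were under 0.05 for 1342 and 1517 genes. DESeq2 called 158 and 145 genes and 0 members in each.

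P4 stroke and P2 stroke libraries, compared in the same fit and sharing the P2 stroke group with the contrast above, differed in C3 by 2.38 ± 1.19 on the log2 scale (edgeR adjusted p = 0.445). C3 had medians of 0.949 CPM (0 to 73.0) in P2 controls, 13.2 (0.151 to 90.1) in P2 stroke and 69.7 (2.91 to 615) in P4 stroke libraries. The spread within each group was wide, and 8 of 9 P4 libraries lay above the P2 stroke median. P4 stroke 19, the highest, had 5876 genes at 10 counts or more, the fewest of all, and without it the C3 difference was 1.38 (adjusted p = 0.759). C1qc, C1qa and C1qb differed by 0.41 ± 0.22, 0.45 ± 0.32 and 0.33 ± 0.24 (adjusted p = 0.487, 0.647 and 0.653). Leaving out 1 library took the C1qa difference as low as -0.00365 (edgeR adjusted p up to 0.998). Of 10 monocyte and border macrophage markers 3 were tested between these groups, with 0 called by edgeR and a median log2 fold of -3.20. The sum of all 10, tested or not, pointed the other way. It ranged from 420 to 4411 CPM in P4 and from 6.53 to 551 CPM in P2 stroke libraries. Mrc1 and Lyve1 were at 0 in all P4 libraries but not in all P2 stroke libraries, and Cd163 was at 0 in all microglia libraries.

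Of 45 further complement genes 27 to 34 passed the filter on low counts in the first 4 tables and 12 in microglia. In OPC 10 of 27 rose and 1 fell, with a median log2 fold of 0.38, beside 11.7% higher and 8.77% lower among all genes. Some of the 10 needed the stroke libraries to pass the filter, which favoured a rise for them. Examples are C4a, at means of 0.0531 CPM in controls and 0.301 in stroke libraries, and Itgax, at 0.118 and 1.13. How many did so was not counted in any table. The integrin subunit genes of complement receptor 3 rose, Itgam from 0.423 ± 0.239 to 5.10 ± 1.49 CPM (mean ± SD, n = 6 and 6) and Itgb2 from 1.08 ± 0.63 to 22.2 ± 10.9. So did the protease gene C1ra, from 1.46 ± 0.57 to 6.41 ± 1.73 CPM, and Clu, the gene of the regulator clusterin, from 211 ± 36 to 522 ± 173. Their log2 folds were 3.59, 4.38, 2.14 and 1.31 (edgeR adjusted p = 3.19e-06, 3.96e-06, 2.59e-05 and 9.40e-05).

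Astrocytes had 5 of 27 higher and 1 lower (median 0.42), beside 5.63% and 4.68% of all genes, with Itgb2 at 1.97, Itgam at 2.28 and Itgax at 1.17 on the log2 fold scale. Susd4, which encodes an inhibitor of the pathway, fell by 0.80 (edgeR adjusted p = 0.0432). Pericytes had 5 of 34 higher and 2 lower (median 0.15), shares no larger than the 15.9% and 12.8% of all genes. Itgb2 and Itgam rose by 2.74 and 2.90, C1qbp, which encodes a mitochondrial protein that binds C1q, rose by 0.60, and the inhibitor genes Susd4 and Csmd1 fell by 1.02 and 1.16 (adjusted p = 0.0131 and 0.00928). In EC 4 of 32 rose and 0 fell (median 0.40), beside 3.57% and 2.67% of all genes. Those that rose included Cd93 (1.03), a surface glycoprotein gene of endothelial and myeloid cells, C1s1 (1.44), which encodes a C1 protease, and Cr1l (0.39), a membrane regulator. Neuron markers, which include none of these genes, fell in all 4 tables, 9 of 12 in pericytes, 8 in astrocytes, 6 in EC and 6 in OPC. In microglia 0 of 12 were called by edgeR in either comparison.

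Across all 77 libraries the genes most like each member were named by Pearson's r of log2(CPM + 1) among 15370 genes, as a description that mixes cell type, condition and depth. C1qb was most like C1qc (r = 0.992), Ctss (0.990), a cathepsin gene of myeloid cells, and C1qa (0.988). C1qa was most like C1qb, C1qc (0.979) and Ctss (0.977), and C1qc like C1qb, Ctss (0.991) and Laptm5 (0.988). C3ar1 was most like Tyrobp (0.979), Plek (0.974) and Fcer1g (0.971), and C5ar1 like Ctss, Tyrobp and Fcer1g (0.902 to 0.903). Serping1 was most like Osmr (0.983), a cytokine receptor gene, Rarres2 (0.979) and Rhod (0.975). C4b was most like Fbxo44 (0.864), the interferon-induced gene Ifit3 (0.862) and Dbi (0.862). The highest values for C3 were 0.720 (Cdkn1a), 0.714 (Psap) and 0.709 (AW112010), and for Cfb 0.639 (Cd40), 0.608 (Sult5a1) and 0.596 (Nos2).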

How the data were processed

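The authors deposited 5 tables of raw gene counts, each with 52636 Ensembl identifiers and 1 column per library, without normalization. Per the submitters' processing notes, bcl2fastq 2.20, STAR and HTSeq were used with GRCm38. Column names of 4 tables begin with "hisat". Annotation, counting mode and versions of STAR and HTSeq: not given in the sources used here. Per the labels' protocols, RNA came from the NucleoSpin RNA XS kit and libraries from the Takara SMART-Seq v4 kit, which does not mark strand or molecules, so floors (3 counts over a group) cover counting error only.

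Symbols and coordinates are from GENCODE M21 (52489 identifiers matched), and promoter windows, found for 5 of 9 members, from RefSeq, GRCm38.p6. Each table was fitted alone with edgeR 4.0.16 (R 4.3.3), with filterByExpr, TMM scaling, glmQLFit and glmQLFTest, and Benjamini-Hochberg adjustment over all genes. The 3 microglia groups shared 1 fit. Cell type by condition was tested with 3 interaction terms over 51 libraries. Its contrasts of OPC with each other table were chosen after seeing the data. The pipeline was tested on simulated data. Alternatives were RLE factors, library totals alone, no filter, DESeq2 1.42.0, each library left out, EC depth classes, pericyte controls 11 and 15 summed, and smaller microglia fits, of which the one without the 2 libraries of fewest genes was chosen after seeing the data. Pericyte controls 11 and 15 had close sums of the larger marker lists, such as 12390 and 12150 CPM of pericyte markers and 23370 and 23870 CPM of mature oligodendrocyte markers. Whether they share a source is not given, and elsewhere they were counted as separate controls. Summing them changed no member's call. All 9 members were named, with up to 5 called genes of the wider list by adjusted p with a mean of at least 1 CPM, and the 3 most alike genes per member. A gene of the wider list that this rule names is not reported here. The members and lists were chosen with earlier results of these data known.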

Additional observations from a re-analysis of the deposited data

Results flagged for a closer look

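Single libraries far from the rest of their group were found in 21 of 95 sets of a member and a group of 4 to 10 libraries. The rule flags about 1 in 20 where values are normal. Here CPM was untransformed, Cfb was near 0 and members shared libraries, so that rate is no baseline for the 21. Pericyte control 8 was high for C1qa (376.8 CPM), C1qb (801.8), C1qc (554.1) and C3ar1 (34.43). Pericyte control 6 was high for C3 (10.61 CPM), Cfb (0.947) and Serping1 (1800). Pericyte stroke 4 was high for Cfb (1.418 CPM). Astrocyte stroke 12 was high for C1qc (864.4 CPM) and C3ar1 (51.38) and low for C4b (288.4), and astrocyte stroke 8 was high for Cfb (0.06245). EC control 9 was low for C1qc (22.89 CPM).

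In microglia, P4 stroke 19 was high for C1qa (4285 CPM) and C3 (615.4), P4 stroke 18 for C3ar1 (1326), and P4 stroke 26 for Cfb (1.166) and Serping1 (12.49). P2 control 14 was high for C1qc (4439 CPM), P2 control 12 for C3 (72.98) and P2 stroke 16 for Cfb (1.921).

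The stroke response differed among EC, pericytes, OPC and astrocytes by the interaction test of edgeR for C1qa (adjusted p = 0.004509), C1qb (0.03547), C1qc (0.01321), C4b (6.023e-07), Serping1 (0.01286), C3ar1 (0.02033) and C5ar1 (0.01925).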

How the results depend on the processing

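No member changed direction and passed under any setting. Leaving out 1 library, 1085 of 1112 member results stayed as they were, called or not called (22 lost a call and 5 gained a call). Under the other settings 373 of 399 stayed so (17 lost a call and 9 gained a call). Many of these results had no call in the main fit to lose, so the shares do not measure how stable the calls are. Genes called in EC numbered 862 with no filter, 2740 with DESeq2 and 138 to 1493 leaving out 1 library (138 when control 7 was left out, 195 for control 9, 625 for stroke 8 and 748 for stroke 10), against 1309. Within each EC depth class 0 genes and 0 members were called, with fewer libraries. With library totals alone 78.7% of EC calls were higher against 57.2%, in pericytes 38.0% against 55.2% and in OPC 80.6% against 57.2%, and the median of all genes in pericytes moved from -0.08 to -0.28. Of genes whose response differed between OPC and pericytes 77.7% were higher in OPC with library totals alone against 53.4% (median 0.49 against 0.25), and between OPC and astrocytes 59.8% with RLE factors against 78.3%. Leaving out 1 library, pericytes gave 4942 to 7365 genes, OPC 3041 to 3936, astrocytes 1387 to 2220 and the interaction 3302 to 3547. EC then had 5 to 6 members higher, pericytes 5 to 8, OPC 8, astrocytes 5 to 6 and the interaction 6 to 7, with 0 lower in each. DESeq2 called 7, 7, 8, 6 and 7 members in the same order. It also called more genes in EC, and its share of all genes called is not given, so these member counts are a description.

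In microglia, P2 stroke against control gave 2 genes with no filter, 158 with DESeq2, 0 with 2 groups, 0 without the 2 libraries of fewest genes and 0 to 15 leaving out 1 library. P4 against P2 stroke gave 52, 145, 0, 0 and 1 to 3, and 0 members passed in any of these. Against pericytes 4 members had a larger OPC response with library totals alone and 4 with DESeq2, where Serping1 (1.36 and 1.11) and C3ar1 (1.68 and 1.42) also passed. Among all genes 3072 were called higher in OPC with library totals alone, against 1493 in the main fit. For DESeq2 that number is not given. Against astrocytes DESeq2 called 699 genes, and the C5ar1 difference was 2.59 with RLE factors and 2.68 with no filter, neither passing. The C1qb interaction was lost with no filter (0.0538) and in 4 of 12 fits that left out 1 EC library (up to 0.0555). Leaving out 1 EC library gave 512 to 640, 2729 to 2788 and 331 to 364 genes and 6, 2 and 2 to 3 members against EC, pericytes and astrocytes. EC Serping1 was lost with no filter (0.62, adjusted p = 0.0537) and with the depth class as a term (0.61, 0.0595), and EC C3 passed with library totals alone (0.86, 0.0407). Astrocyte Serping1 passed with library totals alone (0.71, 0.0410), with DESeq2 (0.70, 0.0349), without control 1 (0.89, 0.0190) and without stroke 12 (0.80, 0.0489), and pericyte Cfb with DESeq2 (3.12, 0.00793). Other than the construction named, the cause was not tested. No paired analysis was possible because replicate numbers differ between control and stroke within each cell type. Counts were few for Cfb (0 to 255 over a group) and for C5ar1 in OPC controls (60) and EC controls (135).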
